A study of Rattus norvegicus with 9 samples.

Results

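The Cyp2c genes of the rat encode cytochrome P450 enzymes of the liver that hydroxylate steroids, retinoids, fatty acids and drugs. A list of 8 of them (Cyp2c6, Cyp2c6v1, Cyp2c7, Cyp2c11, Cyp2c12, Cyp2c13, Cyp2c22 and Cyp2c23) was looked up by gene symbol on an expression array that named 14497 genes. Of these, 6 had a row of the table to themselves, 1 row each. Cyp2c6 is carried as an older name of Cyp2c6v1 in the gene table used for names, so the Cyp2c6v1 row stands for that gene, and no level of Cyp2c7 was analysed here. The row identifiers are 10715211 for Cyp2c11, 10930762 for Cyp2c13, 10930766 for Cyp2c12, 10715224 for Cyp2c6v1, 10730046 for Cyp2c22 and 10715531 for Cyp2c23.

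The 9 RNA preparations came from livers of F344 rats, an inbred strain, and each was hybridised to 1 Affymetrix Rat ST 1.0 array. Adult hepatocytes (n = 3) were freed by collagenase perfusion from rats aged 5 to 6 weeks, with no further selection named. The fetal cells were taken at embryonic day 19, dissociated with collagenase and selected on magnetic columns with antibodies to leucine aminopeptidase (LAP, a hepatic surface protein) and OC.2 (an antigen of oval and bile duct cells). They are labelled LAP+/OC.2- (n = 3) and LAP+/OC.2+ (n = 3). The labels give no treatment, no sex and no number of animals per preparation. All 9 are called biological replicates, and where preparations did not come from separate animals the p-values measure only the spread between preparations. Both fetal groups carry the same text for the selection, so the division between them rests on their titles and cell type labels. The short descriptions of the second group read LAP-OC2+ where the titles have LAP+/OC.2+.

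Cyp2c enzymes sit in the endoplasmic reticulum and take electrons from a reductase, Por, and from cytochrome b5. In rat liver several of them depend on sex. The pulsed growth hormone of males keeps Cyp2c11 and Cyp2c13 on after puberty, the more even growth hormone of females keeps Cyp2c12 on, and the signal runs through the receptor Ghr and the transcription factor Stat5b. Cyp2c6 and Cyp2c23 are found in the livers of both sexes.

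The labels were checked against marker genes. The summed intensity of 8 hepatocyte markers was 69191 to 74978 on the adult arrays, 62602 to 67166 on the OC.2- arrays and 27352 to 30367 on the OC.2+ arrays. That of 8 granulocyte markers was 437.1 to 498.5, 496.1 to 557.6 and 13848 to 15480 in the same order, and that of 7 erythroid markers of 8 listed was 545.2 to 586.9, 10876 to 13495 and 28042 to 28243. Granulocyte markers were thus high on the OC.2+ arrays alone among the 3 groups, and erythroid markers on both sets of fetal arrays. No marker was listed at 0. Of 8 ductal markers 6 were measured, with sums of 361.2 to 373.3, 400.7 to 437.0 and 402.3 to 415.6. All 6 lay under the lowest readable level, which is defined further on, on every array. Their sums thus cannot be read as ductal transcript in any group. The preparations are bulk RNA, so fewer hepatocytes and less RNA per hepatocyte cannot be told apart in any value below.

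The gene order on rat chromosome 1 (assembly GRCr8) was Cyp2c11, Cyp2c6v1, Cyp2c7, Cyp2c12, Cyp2c13, Cyp2c22 and Cyp2c23. No annotated gene lies between Cyp2c12 and Cyp2c13, while 81 lie between Cyp2c22 and Cyp2c23. The 250 bases before the annotated start (RefSeq, GRCr8) are shown for 5 measured genes, so that their promoters can be compared by eye. Capitals mark matches on either strand to 6 short motifs, and no match overlaps another. The TATA box was searched as TATAAA. The letters for HNF4, a liver nuclear receptor, were CAAAGTNCA. Those for HNF6, the product of Onecut1, were ATTGATT. The FOXA factors of liver were searched as TGTTTNC. The growth hormone responsive factor STAT5 had TTCNNNGAA. The C/EBP family had TTGCNNAA.
Cyp2c11, chr1:246174966-246175215, plus strand: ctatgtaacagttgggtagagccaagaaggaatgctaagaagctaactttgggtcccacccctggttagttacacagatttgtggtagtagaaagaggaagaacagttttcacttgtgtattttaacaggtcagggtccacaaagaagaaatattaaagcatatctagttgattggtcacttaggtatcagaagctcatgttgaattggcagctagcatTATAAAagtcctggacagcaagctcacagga
Cyp2c12, chr1:248677035-248677284, minus strand: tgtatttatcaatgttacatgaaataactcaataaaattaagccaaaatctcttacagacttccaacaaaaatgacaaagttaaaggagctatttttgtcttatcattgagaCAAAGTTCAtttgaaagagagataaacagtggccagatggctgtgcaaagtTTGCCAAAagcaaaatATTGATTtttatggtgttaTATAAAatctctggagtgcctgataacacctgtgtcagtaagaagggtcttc
Cyp2c13, chr1:248787189-248787438, minus strand: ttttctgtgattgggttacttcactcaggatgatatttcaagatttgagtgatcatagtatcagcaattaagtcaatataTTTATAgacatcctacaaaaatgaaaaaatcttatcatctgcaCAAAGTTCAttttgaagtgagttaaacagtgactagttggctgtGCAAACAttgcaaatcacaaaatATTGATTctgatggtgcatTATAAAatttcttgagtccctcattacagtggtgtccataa
Cyp2c22, chr1:248980768-248981017, minus strand: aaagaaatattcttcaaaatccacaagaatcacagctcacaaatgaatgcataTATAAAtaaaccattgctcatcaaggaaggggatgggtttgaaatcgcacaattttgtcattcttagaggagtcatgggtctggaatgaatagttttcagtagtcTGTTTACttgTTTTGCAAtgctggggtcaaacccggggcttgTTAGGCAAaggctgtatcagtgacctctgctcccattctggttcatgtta
Cyp2c23, chr1:252863068-252863317, minus strand: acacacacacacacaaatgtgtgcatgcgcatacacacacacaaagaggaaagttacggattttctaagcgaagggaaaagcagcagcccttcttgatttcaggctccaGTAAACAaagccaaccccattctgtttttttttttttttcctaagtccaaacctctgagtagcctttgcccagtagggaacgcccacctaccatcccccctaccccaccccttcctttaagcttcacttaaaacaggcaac

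Cyp2c12 and Cyp2c13, the female and the male form that are neighbours, had 178 of 250 bases identical in a gapped alignment (71.2%), beside 53.2 to 62.4% for the other pairs of the 5. Promoters of unrelated genes were not aligned, so these shares have no baseline. Both hold the HNF4 letters, 138 and 127 bases before the start, and the HNF6 letters, 71 and 60 bases before it. Of 33469 rat promoter windows of the same length, 1.06% hold the HNF4 letters and 2.28% the HNF6 letters. A TATA box lies 31 bases before the start of Cyp2c11, 52 before that of Cyp2c12 and 41 before that of Cyp2c13, which holds another at 170, and 12.9% of all windows hold one. Cyp2c22 holds a TATA box only 197 bases before its start, and Cyp2c23, which lies apart from the other genes, holds none. The FOXA letters occur in Cyp2c13, Cyp2c22 and Cyp2c23 (18.3% of all windows). The C/EBP letters occur once in Cyp2c12 and at 2 places in Cyp2c22 (9.22% of all windows), and the STAT5 letters in none of the 5 windows (7.67% of all). A match describes letters only.

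All values below are log2 of the deposited intensity, given for each array in the order of the replicate numbers. Over all genes and arrays the median was 6.67 and the 5th percentile 4.91. Differences between groups were tested with limma over all 14497 genes, folds carry 95% intervals, and a gene was called at a Benjamini-Hochberg adjusted p under 0.05.

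The arrays have no detection call here, so low readings were set beside olfactory receptor genes, which liver is not known to use. This yardstick was chosen after the values were seen. The 95th percentile of 53 such genes was 7.10 to 7.23 on adult, 7.26 to 7.36 on OC.2- and 7.47 to 7.74 on OC.2+ arrays, and it is taken below as the lowest readable level of an array. Where some or all arrays of the dimmer group lay at or under it, the fold is a bound ("at least"), the brighter group's mean over the dimmer group's mean with each reading raised to that level. The adjusted p beside a bound is limma's for the difference as read, and does not test the bound. Cyp2c11, Cyp2c12, Cyp2c13 and Cyp2c6v1 lay under it on all 6 fetal arrays and Cyp2c22 on the 3 OC.2+ arrays. Cyp2c22 in OC.2- cells and Cyp2c23 in either fetal group lay above it on every array. For readings under it, the data do not show whether the cells held any transcript, nor an order among them.

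The male steroid hydroxylases were bright in adult hepatocytes and not readable in fetal cells. Cyp2c11, which hydroxylates testosterone in adult males, read 12.78, 12.48 and 12.63 on the adult arrays, 4.79, 4.65 and 4.78 on the OC.2- arrays and 4.76, 4.95 and 5.14 on the OC.2+ arrays. The adult arrays lay far above all 6 fetal arrays, and the fetal groups overlapped. Adult hepatocytes were at least 40.1-fold above OC.2- cells (adjusted p = 6.6e-14) and at least 32.8-fold above OC.2+ cells (adjusted p = 6.1e-14).

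Cyp2c13, the other male-specific form, read 12.80, 12.56 and 12.63 on the adult arrays, 4.81, 5.38 and 5.23 on the OC.2- arrays and 4.75, 5.17 and 5.23 on the OC.2+ arrays. Again adult and fetal arrays stood apart and the fetal groups overlapped. The adult level was at least 41.0-fold that of OC.2- cells (adjusted p = 9.2e-13) and at least 33.6-fold that of OC.2+ cells (adjusted p = 3.6e-13).

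Cyp2c12, the female form that hydroxylates steroid sulfates, was also measured on the adult arrays, at 9.34, 8.76 and 9.39. It read 4.98, 5.13 and 5.07 on the OC.2- arrays and 5.01, 4.80 and 4.81 on the OC.2+ arrays, so adult replicate 2 was lower than the other adult arrays but still above all fetal ones. The adult level was at least 3.63-fold that of OC.2- (adjusted p = 1.2e-10) and at least 2.97-fold that of OC.2+ cells (adjusted p = 2.3e-11). Adult replicate 2 was the lowest adult array for Cyp2c11, Cyp2c13 and Cyp2c6v1 as well.

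Cyp2c6v1, a constitutive drug-metabolising form that phenobarbital induces, read 12.04, 11.73 and 12.07 on the adult arrays, 6.71, 6.73 and 6.52 on the OC.2- arrays and 6.48, 6.65 and 6.64 on the OC.2+ arrays. Adult and fetal arrays did not overlap, while the fetal groups did. Adult hepatocytes held at least 24.97-fold the level of OC.2- cells (adjusted p = 7.0e-13) and at least 20.5-fold that of OC.2+ cells (adjusted p = 2.8e-13).

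Cyp2c22 and Cyp2c23 followed another course, with 3 separate levels. Cyp2c22, which hydroxylates retinoic acid, read 12.37, 12.28 and 12.23 on the adult arrays, 9.05, 9.20 and 8.75 on the OC.2- arrays and 6.28, 6.37 and 6.40 on the OC.2+ arrays. No group overlapped another. The gene was 9.8-fold lower in OC.2- cells than in adult hepatocytes (8.36 to 11.5, adjusted p = 6.3e-11) and at least 26.02-fold lower in OC.2+ cells (adjusted p = 1.6e-13).

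Cyp2c23, an epoxygenase of arachidonic acid known best from rat kidney and also present in liver, had the smallest difference of the 6 genes between OC.2- and adult cells. It read 12.95, 12.87 and 12.63 on the adult arrays, 11.99, 12.18 and 11.78 on the OC.2- arrays and 8.98, 8.55 and 8.71 on the OC.2+ arrays. The groups did not overlap, and the OC.2- arrays lay much nearer to the adult than to the OC.2+ arrays. The gene was 1.78-fold lower in OC.2- cells than in adult hepatocytes (1.46 to 2.17, adjusted p = 0.00018) and 16.8-fold lower in OC.2+ cells (13.8 to 20.5, adjusted p = 1.9e-11). Both comparisons with adult cells share the adult arrays.

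**Figure D1:**
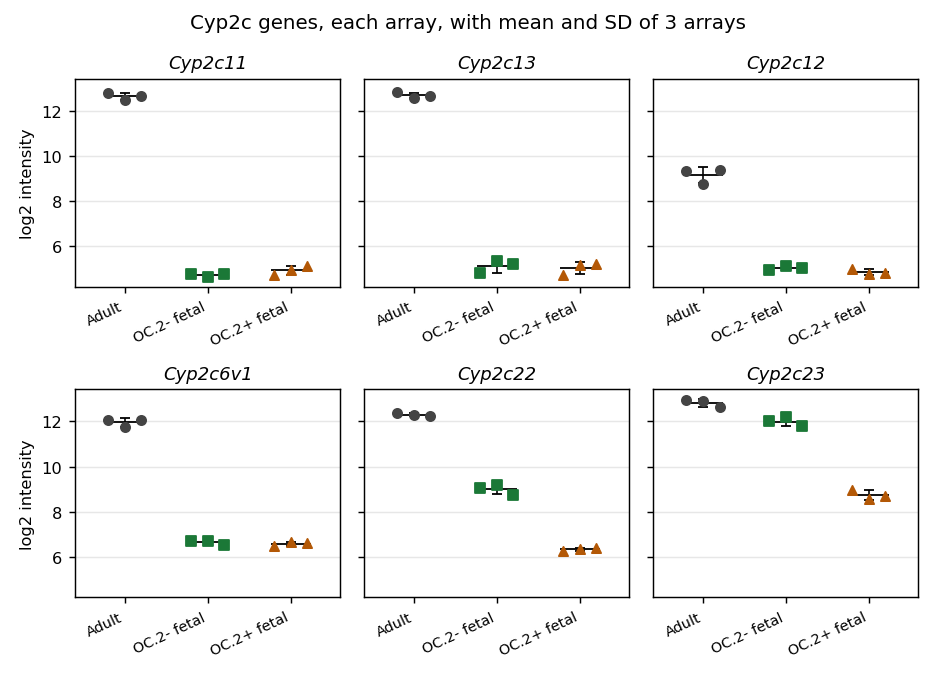
Log2 intensity of the 6 measured Cyp2c genes on each of 9 arrays, with adult hepatocytes as circles, OC.2- fetal cells as squares and OC.2+ fetal cells as triangles; bars are the mean and SD of 3 arrays. Cyp2c11, Cyp2c13, Cyp2c12 and Cyp2c6v1 show 1 high and 2 low groups, whereas Cyp2c22 steps down from 12.29 to 9.001 and 6.35 and Cyp2c23 from 12.82 to 11.98 and 8.75.

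Counted together, all 6 measured genes were lower in OC.2- cells than in adult hepatocytes, where 20.9% of all genes were called lower, and 3 of them (Cyp2c11, Cyp2c13 and Cyp2c6v1) were at least 16-fold lower as a bound, as were 0.241% of all genes. All 6 were also lower in OC.2+ cells than in adult hepatocytes, against 23.4% of all genes. All but Cyp2c12, 5 of them, were at least 16-fold lower as a bound, against 0.49%. Only a gene bright in adult cells can reach such a bound, so the shares at 16-fold depend on the adult level too. Cyp2c12, with an adult mean of 9.16, could not reach it at any fetal level. No array of either fetal group overlapped the adult arrays for any of the 6, which held for 23.2% of all genes as lower in OC.2- cells and for 25% in OC.2+ cells. The median difference of the 6 was -4.70 in OC.2- and -5.65 in OC.2+ cells as read, and -3.97 and -4.53 with readings raised to the lowest readable level, beside medians over all genes of 0.07 and 0.11. Higher genes made up 53.1% of calls for OC.2- against adult cells and 57.8% for OC.2+ against adult cells. After median centring these shares were 34.6% and 42.5%, and after cyclic loess 42.5% and 42.2%. Median centring moved the median of all genes from 0.07 to -0.06 and from 0.11 to -0.03. All 6 genes remained called lower under each rescaling.

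Whether the genes fell by unequal amounts was tested on the difference between pairs of genes within each array, with the 6 fetal arrays together against the 3 adult arrays. As read, 11 of 15 pairs passed, each at the smallest p that this 2-sided exact permutation test can give (p = 0.0238, adjusted over the 15 pairs p = 0.0325). In pairs among Cyp2c11, Cyp2c12, Cyp2c13 and Cyp2c6v1 both fetal readings lay under the lowest readable level. In their pairs with Cyp2c22 the OC.2+ readings did, so the test results of these pairs carry no order of the falls. In OC.2- cells alone Cyp2c22 was readable and 9.8-fold lower. The bounds of Cyp2c11, Cyp2c13 and Cyp2c6v1 there (40.1, 41.0 and 24.97) exceeded that fall and the bound of Cyp2c12 (3.63) did not, which was not tested. Cyp2c23 was readable on every array, and a gene whose bound exceeds the fall of Cyp2c23 fell more. With readings raised to the lowest readable level, the fetal minus adult difference less that of Cyp2c23 was -2.73 for Cyp2c11, -2.76 for Cyp2c13 and -1.55 for Cyp2c22, or further below 0 (exact permutation test, p = 0.0238, adjusted over 5 pairs p = 0.0397). For Cyp2c6v1 it was -2.05, which did not pass (exact permutation test, adjusted p = 0.119). For Cyp2c12 it was 0.73, a bound that leaves the order unknown over both fetal groups together. These values differed between the fetal groups, being -4.49 in OC.2- and -0.97 in OC.2+ cells for Cyp2c11 and -3.81 and -0.29 for Cyp2c6v1. For Cyp2c12 they were -1.03 and 2.50. By this bound Cyp2c12 fell more than Cyp2c23 in OC.2- cells, and the order in OC.2+ cells is unknown. The groups were not tested singly. The p-values treat the 6 fetal arrays as alike, so they do not speak for either fetal group alone. With 3 against 3 arrays the exact permutation test cannot go below 0.1.

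**Figure D2:**
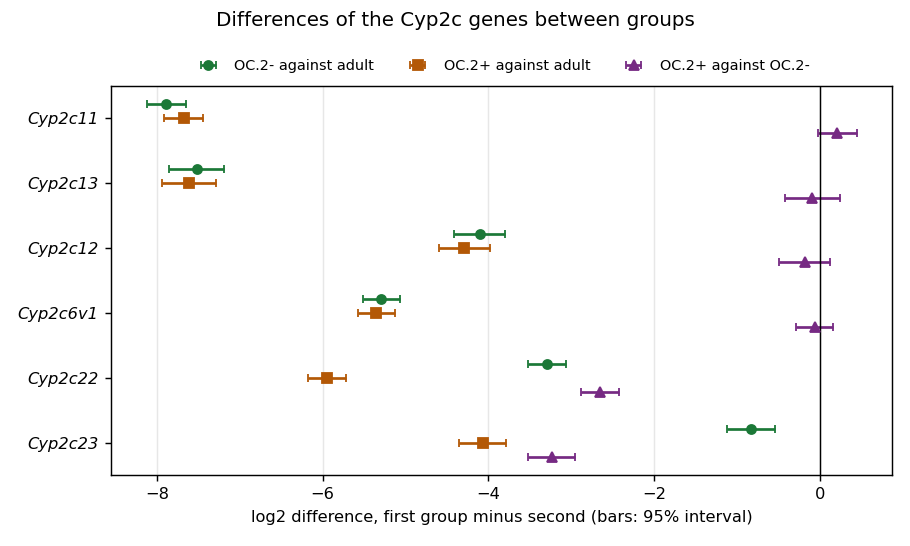
Log2 difference of each Cyp2c gene in the 3 comparisons, as the first named group minus the second, with 95% intervals from limma. Values are as read, so for Cyp2c11, Cyp2c13, Cyp2c12 and Cyp2c6v1, and for Cyp2c22 where OC.2+ cells enter, they rest on readings under the lowest readable level. Circles and squares against adult cells lie left of 0 for all 6 genes; triangles for OC.2+ against OC.2- cells lie near 0 for 4 genes and at -2.65 and -3.24 for Cyp2c22 and Cyp2c23.

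Between the fetal groups, Cyp2c22 and Cyp2c23 differed. Cyp2c22 was at least 2.66-fold lower in OC.2+ cells than among OC.2- ones (adjusted p = 6.6e-10) and Cyp2c23 9.43-fold lower (7.74 to 11.5, adjusted p = 7.8e-10). These 2 of 6 genes stand beside 18.2% of all genes called lower, and beside 20.7% whose OC.2+ arrays all lay below the OC.2- arrays. The other genes were under the lowest readable level in both groups, so no fold is given. Their differences as read were 0.21 ± 0.11 (SE) for Cyp2c11 (limma adjusted p = 0.156), -0.19 ± 0.14 for Cyp2c12 (adjusted p = 0.368), -0.09 ± 0.15 for Cyp2c13 (adjusted p = 0.721) and -0.06 ± 0.10 for Cyp2c6v1 (adjusted p = 0.708). Their 95% intervals were -0.02 to 0.45, -0.49 to 0.12, -0.42 to 0.24 and -0.29 to 0.16. Without OC.2+ replicate 1, Cyp2c11 passed the threshold, at 0.31 (adjusted p = 0.047).

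All 8 hepatocyte markers were lower in OC.2+ cells than among OC.2- ones as well, with a median of -1.96, from -2.85 for Apob, the main protein of liver lipoproteins, to -0.32 for albumin (Alb). Of the 8 granulocyte markers 7 were higher, with a median of 4.29, and all 7 erythroid markers were higher, with a median of 1.72. For the 7 called granulocyte markers the OC.2- level was not readable. The 6 measured endothelial markers of 8 listed were lower, their sum being 3286 to 4416 on OC.2- and 563.0 to 574.8 on OC.2+ arrays. The part of these cell types in the differences of Cyp2c22 and Cyp2c23 was not tested. Against adult hepatocytes the OC.2- arrays showed 1 of 8 hepatocyte markers higher and 3 lower (median -0.14), but 2 higher and 6 lower after quantile normalization, 1 and 5 after median centring and 1 and 6 after cyclic loess. They also showed all 7 erythroid and all 6 endothelial markers higher, and 7 of 8 stellate and mesenchymal markers higher and 1 lower, with neither group readable for 2 of the 8. Beside these counts, 20.9% of all genes were called lower and 23.7% higher in OC.2- than in adult cells. Afp, the fetal counterpart of albumin, was at least 88.3-fold higher in OC.2- and at least 48.5-fold higher in OC.2+ cells than in adult hepatocytes. Albumin differed by 0.02 ± 0.08 (SE) between OC.2- and adult cells (adjusted p = 0.855) and ranged from -0.50 to 0.07 over the alternatives, called lower under quantile normalization and cyclic loess. Cyp2c23, the least changed Cyp2c gene there, differed by -0.83.

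**Figure D3:**
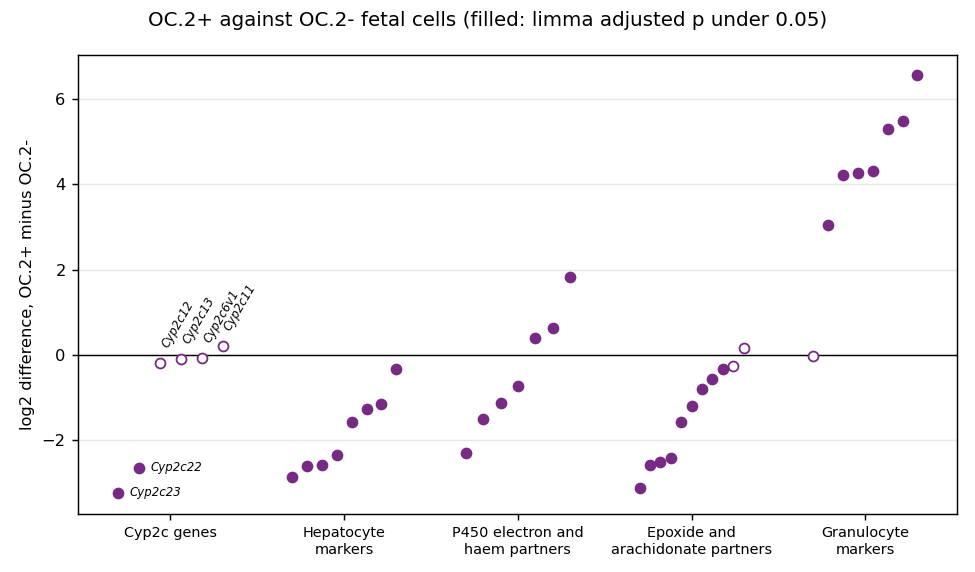
Log2 difference, as read, of single genes between OC.2+ and OC.2- fetal cells for the Cyp2c genes and for 4 lists, 1 point per gene in ascending order, filled where limma's adjusted p was under 0.05. Cyp2c22 and Cyp2c23 lie among the lowest points, the other Cyp2c genes lie near 0, hepatocyte markers run from -2.85 to -0.32 and granulocyte markers from -0.02 to 6.55.

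Most partners of the P450 enzymes were lower in fetal cells. Of 7 genes for electron transfer and haem supply, 7 were lower in OC.2- cells than in adult hepatocytes (median -1.06), where 20.9% of all genes were lower and 23.7% higher. Por, the reductase that all of these enzymes need, read 8.65, 8.48 and 8.55 in adult, 7.69, 7.69 and 7.60 in OC.2- and 7.09, 6.88 and 6.79 in OC.2+ cells, with no overlap between groups. It was 1.87-fold lower in OC.2- (1.63 to 2.14, adjusted p = 2.9e-06) and at least 1.96-fold lower in OC.2+ cells (adjusted p = 3.5e-09). Pgrmc1, a haem-binding protein that binds P450 enzymes, was 3.95-fold lower in OC.2- and 19.5-fold lower in OC.2+ cells. Cyb5r3, the reductase of cytochrome b5, was 3.31-fold lower in OC.2- cells, and Cyb5b, the mitochondrial cytochrome b5, at least 6.88-fold lower in OC.2+ cells, where 1 of 3 arrays lay under the lowest readable level. In OC.2+ cells 6 of the 7 were lower than in adult hepatocytes (median -1.64) and 1, Fech, was higher, beside 23.4% of all genes lower and 32% higher. Fech, the last enzyme of haem synthesis, was 2.66-fold higher in OC.2+ cells than in adult hepatocytes (2.31 to 3.07, adjusted p = 2.9e-08) and 3.57-fold higher than in OC.2- cells. Its lower level in OC.2- than in adult cells was not called after quantile normalization. Between the fetal groups 3 were higher and 4 lower in OC.2+ cells (median -0.74), beside 20.3% and 18.2% of all genes, and Cyb5r3 was 1.55-fold higher there. The erythroid markers rose on the same arrays, and their part was not tested.

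Genes that make or use epoxides and other arachidonate products were listed with Cyp2c23. Of 11 measured genes of 12 listed, 9 were lower in OC.2- (median -1.52) and 10 in OC.2+ cells (median -3.86) than in adult hepatocytes, and 9 were lower in OC.2+ cells than among OC.2- ones (median -1.19). The shares of all genes called lower were 20.9%, 23.4% and 18.2% in that order. The dimmer group was not readable for 3, 8 and 6 of these calls, and for 1 more of the last neither group was. Ephx1, the microsomal epoxide hydrolase, read 12.28, 12.49 and 12.48 in adult, 10.91, 10.98 and 10.81 in OC.2- and 8.01, 7.69 and 7.65 in OC.2+ cells. It thus stepped down across the 3 groups with no overlap, and was at least 8.56-fold lower in OC.2+ cells than among OC.2- ones (adjusted p = 1.9e-10), with 1 of 3 OC.2+ arrays under the lowest readable level. Cyp2j3 and Cyp2j4, other arachidonate epoxygenases, were at least 9.25-fold and 2.26-fold lower in OC.2- cells than in adult hepatocytes. Cyp4f1, a fatty acid hydroxylase, was 17.8-fold lower there and at least 24.6-fold lower in OC.2+ cells. Ephx2, the soluble hydrolase that opens arachidonate epoxides, did not pass between OC.2- and adult cells (0.18, limma adjusted p = 0.40).

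Of the other genes of the Cyp2 family, 21 of 23 listed were measured. In OC.2- cells 18 were lower than in adult hepatocytes (median -2.11), in OC.2+ cells 18 (median -3.23), and 9 were lower in OC.2+ cells than among OC.2- ones (median -0.26), beside 20.9%, 23.4% and 18.2% of all genes. The medians are as read, and the dimmer group was not readable for 12 of the 18, 16 of the 18 and 4 of the 9 calls in that order. For 2 more of the calls in each comparison with adult cells, and for 5 more of the 9 between fetal groups, neither group was readable. None was called higher in the main fit, while 1, with neither group readable, was under some of the alternative settings. Cyp2e1, which oxidises ethanol and small solvents, was at least 40.5-fold lower in OC.2- cells (adjusted p = 7.2e-14) and read 6.24 to 6.47 there against 12.59 to 12.72 in adult cells. Cyp2d2 was another gene with 3 levels, at 12.22 to 12.39 in adult, 9.87 to 10.26 in OC.2- and 6.95 to 7.31 in OC.2+ cells. It was at least 5.66-fold lower in OC.2+ cells than among OC.2- ones (adjusted p = 6.1e-10).

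The sex-dependent genes outside Cyp2c were compared because Cyp2c11 and Cyp2c13 mark males and Cyp2c12 marks females. All 4 male-predominant genes (Cyp2a2, Cyp3a2, Cyp3a18 and Hsd3b5) were lower in OC.2- and in OC.2+ cells than in adult hepatocytes, beside 20.9% and 23.4% of all genes. Their medians as read were -6.20 and -6.39, with no readable fetal level. Between the fetal groups 2 of them, Cyp2a2 and Cyp3a18, were called, but with neither group readable no direction is given. Of all genes 18.2% were called lower there and 20.3% higher. The adult means of the 4 were 11.46 to 12.02. Cyp3a2, a testosterone hydroxylase of males, was at least 18.3-fold lower in OC.2- cells (adjusted p = 1.0e-13). Of 3 measured female-predominant genes only Cyp2a1 was called lower, 6.92-fold in OC.2- and at least 6.82-fold in OC.2+ cells, from adult readings of 10.36, 10.53 and 10.19. This 1 of 3 stands beside the same 20.9% and 23.4% of all genes. A1bg, a plasma glycoprotein, read 5.86 to 6.03 in adult cells, and Prlr, the prolactin receptor, 4.53 to 5.16, both under the lowest readable level. Neither was called in any comparison (limma adjusted p from 0.36 to 0.91).

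Regulators of the Cyp2c genes were measured for 18 of 20 listed. In OC.2- cells 14 were lower than in adult hepatocytes (median -1.14). In OC.2+ cells 13 were lower and 3 higher (median -1.56). OC.2+ cells had 9 lower and 4 higher than OC.2- cells (median -0.38). Of all genes 20.9%, 23.4% and 18.2% were lower in that order, and 32% and 20.3% were higher in the last 2 comparisons. The dimmer group was not readable for 7 of the 14, 10 of the 16 and 9 of the 13 calls, and neither group for 2 more of the last. Ghr, the growth hormone receptor, read 11.83, 11.66 and 11.69 in adult, 9.60, 9.76 and 9.35 in OC.2- and 6.67, 6.40 and 6.67 in OC.2+ cells. With no overlap between groups it was 4.46-fold lower in OC.2- (3.76 to 5.28, adjusted p = 6.2e-09) and at least 17.6-fold lower in OC.2+ cells (adjusted p = 6.5e-13).

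Hnf4a, a nuclear receptor that drives many Cyp2c promoters, read 11.09, 10.95 and 10.90 in adult, 9.84, 10.02 and 9.67 in OC.2- and 7.29, 7.17 and 7.26 in OC.2+ cells. Like Ghr it stepped down across the groups, 2.2-fold and at least 10.5-fold below adult hepatocytes, and it is also one of the hepatocyte markers. Nr1i2 (PXR, a drug sensor) had the same order, 2.02-fold and at least 2.22-fold lower. Nr1i3 (CAR, the receptor behind phenobarbital induction) was at least 1.4-fold lower in OC.2- and at least 1.15-fold lower in OC.2+ cells, with neither fetal group readable. Stat5b, which carries the growth hormone signal to the nucleus, was lower in OC.2- cells (-0.75 ± 0.12 SE, adjusted p = 0.00023) and in OC.2+ cells (-0.60 ± 0.12, adjusted p = 0.0011).

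Dbp, a circadian factor, was at least 1.4-fold higher in OC.2+ cells than in adult hepatocytes (adjusted p = 0.00023), of which 2 of 3 arrays lay under the lowest readable level. Jak2, the kinase of the growth hormone receptor and of blood-cell cytokine receptors, was at least 1.74-fold higher in OC.2+ cells than in adult hepatocytes (adjusted p = 6.7e-08), along with the blood-cell markers above, whose part was not tested. Onecut1 (HNF6), known to act on the Cyp2c12 promoter, read 7.75, 8.60 and 9.46 in adult, 8.10, 8.18 and 7.81 in OC.2- and 6.80, 7.07 and 7.02 in OC.2+ cells. OC.2+ cells were at least 1.35-fold lower than OC.2- cells (adjusted p = 0.013), a call that ended without OC.2+ replicate 1 (adjusted p = 0.054). OC.2- and adult arrays overlapped (adjusted p = 0.145).

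**Figure D4:**
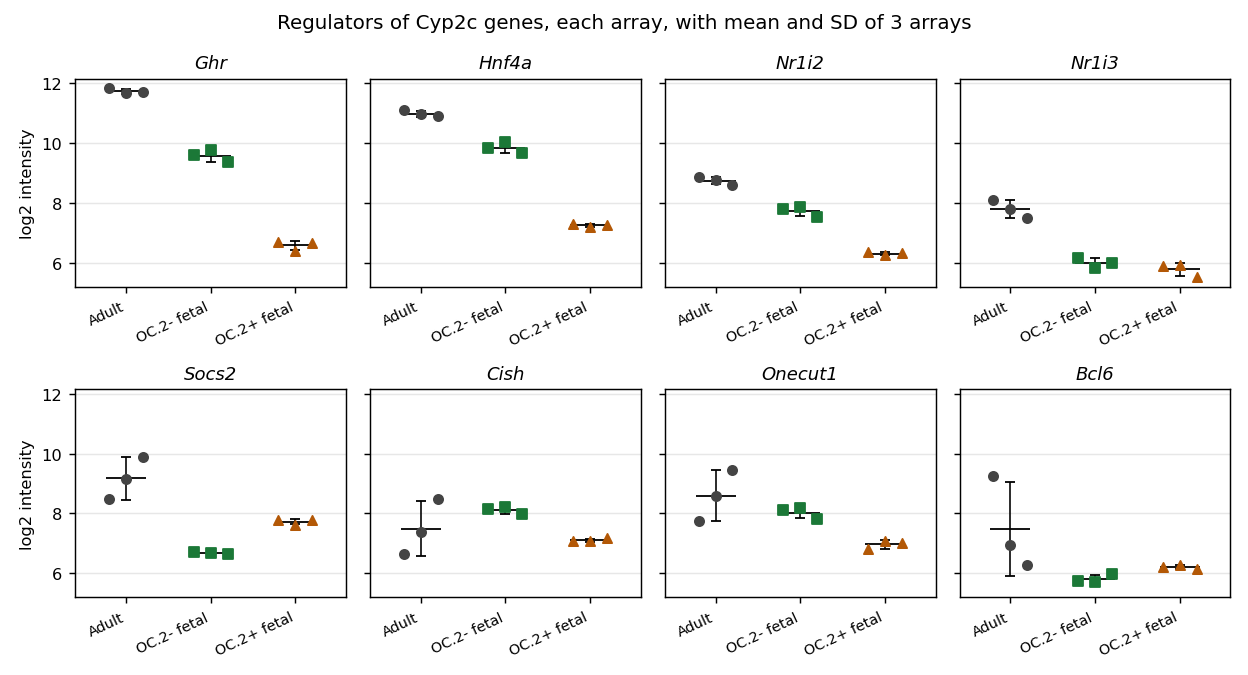
Log2 intensity of 8 regulators on each array, with adult hepatocytes as circles, OC.2- cells as squares and OC.2+ cells as triangles; bars are the mean and SD of 3 arrays. Ghr, Hnf4a and Nr1i2 step down across the groups, while Socs2, Cish, Onecut1 and Bcl6 spread widely over the adult arrays.

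Some regulators varied more among the adult arrays than the Cyp2c genes did. They were picked out after the values were seen. Socs2 and Cish, which growth hormone induces through Stat5, read 8.47, 9.16 and 9.89 and 6.64, 7.37 and 8.48 on adult replicates 1, 2 and 3. Bcl6, a repressor that growth hormone lowers, read 9.25, 6.94 and 6.26. Adult replicate 3 was thus the highest adult array for Socs2, Cish and Onecut1, and adult replicate 1 the highest for Bcl6. The first Cish reading and the last 2 of Bcl6 lay under the lowest readable level. The adult range as read was 1.42 for Socs2, 1.84 for Cish, 1.71 for Onecut1 and 2.99 for Bcl6. Among the measured Cyp2c genes it was 0.30 for Cyp2c11, 0.24 for Cyp2c13 and at most 0.63, for Cyp2c12. Bcl6 was lower in OC.2- than in adult cells (adjusted p = 0.020), with 2 of 3 adult and all OC.2- arrays under the lowest readable level. The difference as read was -1.67, and -0.79 without adult replicate 1, and the call ended in 5 alternatives, among them without OC.2- replicate 1 or 2.

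Genes with the profile most like each Cyp2c gene were found by the root mean square distance between log2 readings over the 9 arrays, each gene centred on its own mean. The readings were used as deposited, those under the lowest readable level included. Cyp2c genes were left out of the search, so a Cyp2c gene may lie nearer to another than the genes named here. The 2 nearest genes outside Cyp2c were Car3 (0.26) and Tat (0.46) for Cyp2c11, and Car3 (0.24) and Dhrs7l1 (0.41) for Cyp2c13. Car3 is a carbonic anhydrase of liver and muscle and Tat the tyrosine aminotransferase. They were Cldn2 (0.20) and Akr1c12 (0.21) for Cyp2c12, and Akr1c2 (0.21) and Sult1b1 (0.21) for Cyp2c6v1. Those of Cyp2c22 were Kynu (0.12), the kynureninase, and Afm (0.14), the plasma protein afamin, which was 11.48 ± 0.08 in adult, 7.91 ± 0.32 in OC.2- and 5.34 ± 0.14 in OC.2+ cells (SD, n = 3). Cyp2c23 was nearest to Timd2 (0.10), a ferritin receptor in rodents, and C8b (0.10), a chain of complement component 8, which was 11.63 ± 0.03, 10.80 ± 0.11 and 7.59 ± 0.12 in the same order.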

How the data were processed

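RNA was isolated with a mirVana kit, and 150 ng of it was labelled by the Affymetrix whole-transcript method, per the labels' protocols. The values the authors deposited are linear intensities. Per the submitters' processing notes Partek 6.6 and RMA were used, in steps that are not described, and a genome build is not stated in what was used here. Median intensity was 79.5 to 81.0 on adult, 86.5 to 89.7 on OC.2- and 87.7 to 88.9 on OC.2+ arrays, so the arrays did not share 1 distribution. Close relatives such as the Cyp2c genes can share probe signal, which was not tested.

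Of 28826 rows, 15209 had 1 gene symbol, 306 several and 13311 none. Symbols were checked by gene ID against GRCr8 names (15178 found, 0 changed). Log2 was taken, and the row with the highest mean represented a gene. Limma 3.58.1 (R 4.3.3) fitted group means over all 9 arrays, 2-sided, with 6 residual degrees of freedom. Precision is limited by the number of arrays, and a difference had a median SE of 0.095. Exact permutation tests used SciPy 1.17.1. The limma fit and the test of pairs were tested on simulated data. Members, lists and tests were chosen with earlier results of these data known. Named genes are the measured Cyp2c genes and, outside Cyp2c, the 2 genes most alike to each. Alb, Afp, Hnf4a, Por, Ghr, Stat5b, Nr1i3 and Onecut1 are named too. From each list, in each comparison, up to 2 called genes each way with the largest difference are named. Apob, Ephx2, A1bg, Prlr, Nr1i2, Cish and Bcl6 are named beyond that rule, with their values known.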

Additional observations from a re-analysis of the deposited data

How the results depend on the processing

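The alternatives were quantile normalization, median centring, cyclic loess, leaving out dim genes, the mean of rows, a trended robust variance, a stricter threshold of 0.01, fitting just the pair of groups in question, a block for replicate number and leaving out each replicate. Under all of them the measured Cyp2c genes stayed lower than in adult hepatocytes, and OC.2+ cells kept lower Cyp2c22 and Cyp2c23 than OC.2- cells. None of the 118 alternative counts of called genes, called Cyp2c genes or pairs moved by over 1.5 times. Hepatocyte markers lower in OC.2- than in adult cells went from 3 of 8 to 6 after quantile normalization or cyclic loess and to 5 after median centring, and regulators lower in OC.2- than in adult cells went from 14 of 18 to 9 of 13 without dim genes. Leaving out dim genes removed Cyp2c12, whose mean was low. Over these settings Cyp2c23 differed between OC.2- and adult cells by -1.08 to -0.73 (limma adjusted p at most 0.0014). Between the fetal groups Cyp2c13 ranged from -0.25 to 0.059 over left-out replicates, where it was 0.059 without OC.2+ replicate 1 and 0.03 without OC.2- replicate 2, and was not called in either. The number of Cyp2c genes called between the fetal groups was 2 to 3. Leaving out replicates gave 5729 to 6217 called genes for OC.2- against adult, 7206 to 8263 for OC.2+ against adult and 5041 to 5595 for OC.2+ against OC.2- cells, against 6458, 8034 and 5576 with all arrays. Of the pairs of genes, 11 passed in each of the 6 fits without 1 fetal array. With readings raised to the lowest readable level, an alternative chosen after seeing the data, 12 of 15 passed. Pairs among Cyp2c11, Cyp2c12, Cyp2c13 and Cyp2c6v1 then have equal readings on each fetal array. Their results rest on the adult levels alone and carry no order of the falls. Without an adult array the test cannot go below 0.0714.

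The labels number replicates 1 to 3 in each group. Deviations of arrays with the same number correlated at -0.23 to 0.11, and 0 of 9 arrays correlated best with its own number in both other groups, so the arrays were taken as sharing only a number. With the replicate number as a block, 6199, 7777 and 5416 genes were called in the same order as above, and 6, 6 and 2 Cyp2c genes. The number of arrays and the dimness of 4 Cyp2c genes in fetal cells limit what can be read from their fetal levels.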
